A study of Mus musculus with 6 samples.

Results

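The genes described here are 37 genes of DNA replication and of entry into S phase, chosen by symbol among the 54532 gene rows of a table of RNA levels in mouse CD4 T cells. Each of the 37 symbols matched 1 Ensembl gene, and all 37 passed the filter on low values, which kept genes whose 6 libraries averaged 1 or more. The list holds 10 genes of origin licensing and the MCM helicase, 5 of helicase activation, 9 of the sliding clamp, its loader and the polymerases, 2 of Okazaki fragment maturation, 4 of nucleotide supply, 5 of the G1/S switch and 2 of replication-coupled DNA methylation.

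The study compared 3 libraries labelled KO (KO 1, KO 4 and KO 5; genotype iCD4-PRMT5 delta/delta) with 3 labelled WT (WT 1, WT 2 and WT 4; genotype iCD4-PRMT5fl/fl), all on the C57BL/6 background. The WT animals therefore carry floxed Prmt5 alleles, and what the prefix iCD4 stands for is not spelled out in the labels. RNA came from CD4 T cells of spleen and lymph nodes, and ribosomal RNA was depleted before stranded library preparation. The treatment label of all 6 samples states 48 h of anti-CD3/CD28, whereas each title ends in the word rest. The activation state is therefore uncertain, and it is only the labels that are the same in both groups. Il2, the cytokine gene induced by T cell activation, measured between 0.7 and 1.1 in the 6 libraries and missed the filter on low values. The other 17 of a list of 18 T cell activation genes passed it, with Cd69 at 193.2 to 369.4 and Il2ra at 42.0 to 63.5.

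Values are the authors' robust FPM, fragments per gene scaled by size factors, with an unknown sequencing depth. Column sums, to 5 digits, lay between 867140 and 961250. A code in the sample descriptions puts WT 1, WT 2 and KO 1 in library series 22 and WT 4, KO 4 and KO 5 in series 24, and the code is not explained further. Prmt5, the targeted gene, measured 24.4, 23.8 and 21.5 in KO 1, KO 4 and KO 5, against 34.9, 41.0 and 43.9 in WT 1, WT 2 and WT 4. All KO values thus lay below all WT values, but the change missed the threshold among the genes tested (log2 change -0.78, SE 0.137, limma adjusted p = 1). WT 1 stood apart: olfactory and vomeronasal receptor genes gave 0.295 FPM per kb of exon there, against 0.0141 to 0.0813 in the other 5 libraries, and WT 1 held the lowest value of 44.3% of the 14944 genes tested.

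Replication begins in G1, when ORC, CDC6 and CDT1 load the ring of MCM2 to MCM7 onto origins. At the G1/S boundary cyclin E with CDK2 relieves the block that RB places on E2F factors, and CDC45 and GINS join the loaded ring to form the active CMG helicase. DNA polymerases alpha, delta and epsilon then copy the strands, with delta and epsilon working on the PCNA clamp, which the RFC complex loads. Most genes of this machinery are known E2F targets, low in quiescent T cells and induced when the cells enter the cycle.

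The promoters of these genes are shown because E2F sites are known in many of them. RefSeq windows of GRCm38.p6, reaching from 250 bases before to 50 bases after an annotated start, were at hand for 31 of the 37 genes. A search on both strands for the 4 E2F-type spellings TTTGGCGC, TTTCGCGC, TTTCCCGC and TTTGCCGC found at least 1 of them in 16 of the 31 genes (51.6%), against 704 of 27025 genes (2.6%) over all promoters of the table. TTTGGCGC and TTTCGCGC occurred in 8 genes each and TTTCCCGC in 6, while TTTGCCGC occurred in 0. The spellings can overlap, because the reverse of TTTCGCGC shares bases with TTTGGCGC. The pentamer CCAAT, searched the same way, occurred in 20 of 31 genes (64.5%), against 41.1% of all genes. Both were also found in lists compared further below. An E2F-type spelling occurred in 11 of 42 other replication genes, 7 of 24 G1/S control genes and 4 of 31 mitosis genes. CCAAT occurred in 19 of 42, 13 of 24 and 25 of 31 of these. A match is a string of letters and does not show that a factor is bound.

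Stretches of 7 promoters are given, those of 4 MCM subunits and those of Orc1, Cdc6 and Uhrf1, which varied most among the genes with a match. Each reads 5′ to 3′ on the strand of its gene, and capitals mark the E2F-type letters in either orientation.
Mcm3, chr1:20820263-20820323, minus strand: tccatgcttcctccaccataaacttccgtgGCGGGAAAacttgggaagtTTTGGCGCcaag
Mcm5, chr8:75109326-75109397, plus strand: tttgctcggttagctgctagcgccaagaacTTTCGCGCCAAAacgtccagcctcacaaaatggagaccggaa
Mcm6, chr1:128359715-128359845, minus strand: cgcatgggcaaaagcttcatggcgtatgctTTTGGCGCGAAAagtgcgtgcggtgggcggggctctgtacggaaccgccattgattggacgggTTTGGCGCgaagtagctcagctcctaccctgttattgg
Mcm7, chr5:138171834-138171897, minus strand: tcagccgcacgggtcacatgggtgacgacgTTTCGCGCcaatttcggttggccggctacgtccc
Orc1, chr4:108579397-108579464, plus strand: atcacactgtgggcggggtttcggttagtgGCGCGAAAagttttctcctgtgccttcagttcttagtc
Cdc6, chr11:98907983-98908050, plus strand: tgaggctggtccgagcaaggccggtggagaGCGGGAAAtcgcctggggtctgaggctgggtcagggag
Uhrf1, chr17:56304098-56304165, plus strand: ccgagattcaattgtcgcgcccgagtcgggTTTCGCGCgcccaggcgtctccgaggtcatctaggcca
In Mcm5 and Mcm6 a forward and a reverse spelling overlap in 1 block of 12 bases, and Mcm6 carries a further copy nearer the start.

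Levels per length differed widely within the machinery. Per kb of annotated exon, Pcna, the sliding clamp, averaged 82.4 FPM over the 6 libraries and was the highest of the 37 genes. Next came Dnmt1, the maintenance DNA methyltransferase, at 30.02 FPM per kb, and the MCM ring, with Mcm4 at 29.5, Mcm6 at 27.2, Mcm3 at 18.0, Mcm7 at 16.7 and Mcm5 at 14.99 FPM per kb. Fen1, at 12.9 FPM per kb, ranked above the last ring gene, Mcm2, at 8.94 FPM per kb. The 3 GINS genes and Cdc45, whose products join that ring, lay between 0.708 FPM per kb (Gins2) and 3.42 FPM per kb (Gins3). Gins2, E2f1, Mcm10 and Orc1 were the lowest, all under 0.80 FPM per kb. The exon length is that of all annotated transcripts together, so a gene with many long isoforms is given a low level per kb.

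**Figure D1:**
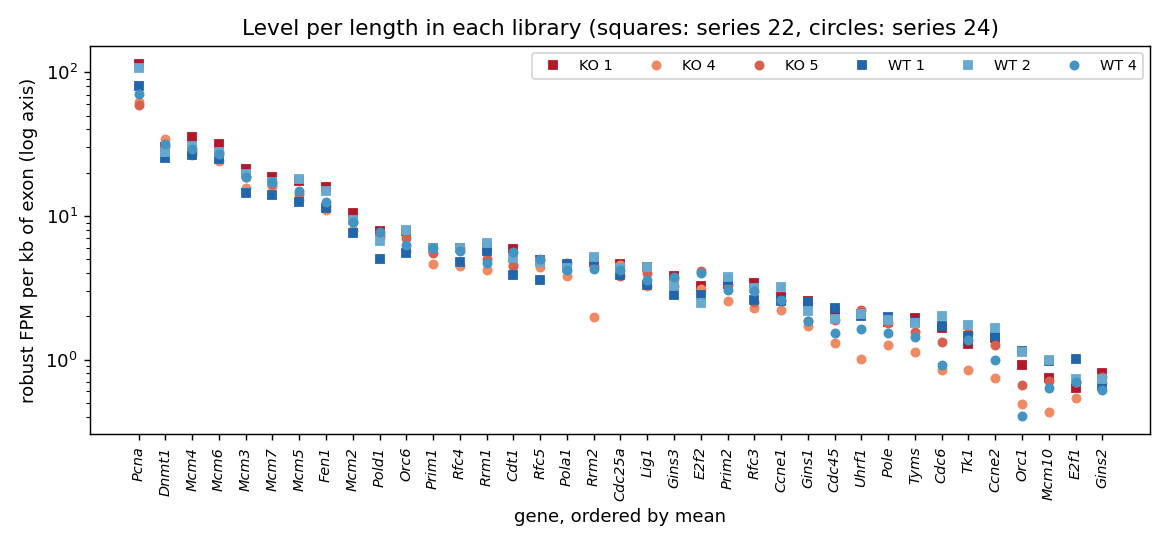
Level of each of the 37 genes in each library, in robust FPM per kb of exon on a log axis, with genes ordered by their mean. Pcna lies at the top with a mean of 82.4 FPM per kb, the MCM ring genes lie between 8.94 and 29.5 FPM per kb, and Gins2 is the lowest at 0.708 FPM per kb.

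The spread between libraries differed among the genes. The ratio of the highest to the lowest library was 2.86 for Orc1, 2.62 for Rrm2, 2.39 for Cdc6, 2.33 for Mcm10, 2.23 for Ccne2, 2.21 for Uhrf1 and 2.05 for Tk1. It was 1.32 to 1.45 for the 6 MCM ring subunits, which together form 1 hexamer. On the log2 scale, the deviations of these 6 genes from their own means lay between 0.16 and 0.28 in KO 1, between -0.20 and -0.05 in KO 4 and between -0.07 and 0.05 in KO 5. In the WT libraries they lay between -0.29 and -0.13 in WT 1, between 0.03 and 0.27 in WT 2 and between -0.02 and 0.07 in WT 4. Averaged over the 6 ring genes the deviation was highest in KO 1 (0.227) and lowest in WT 1 (-0.210), and KO was not separated from WT.

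**Figure D2:**
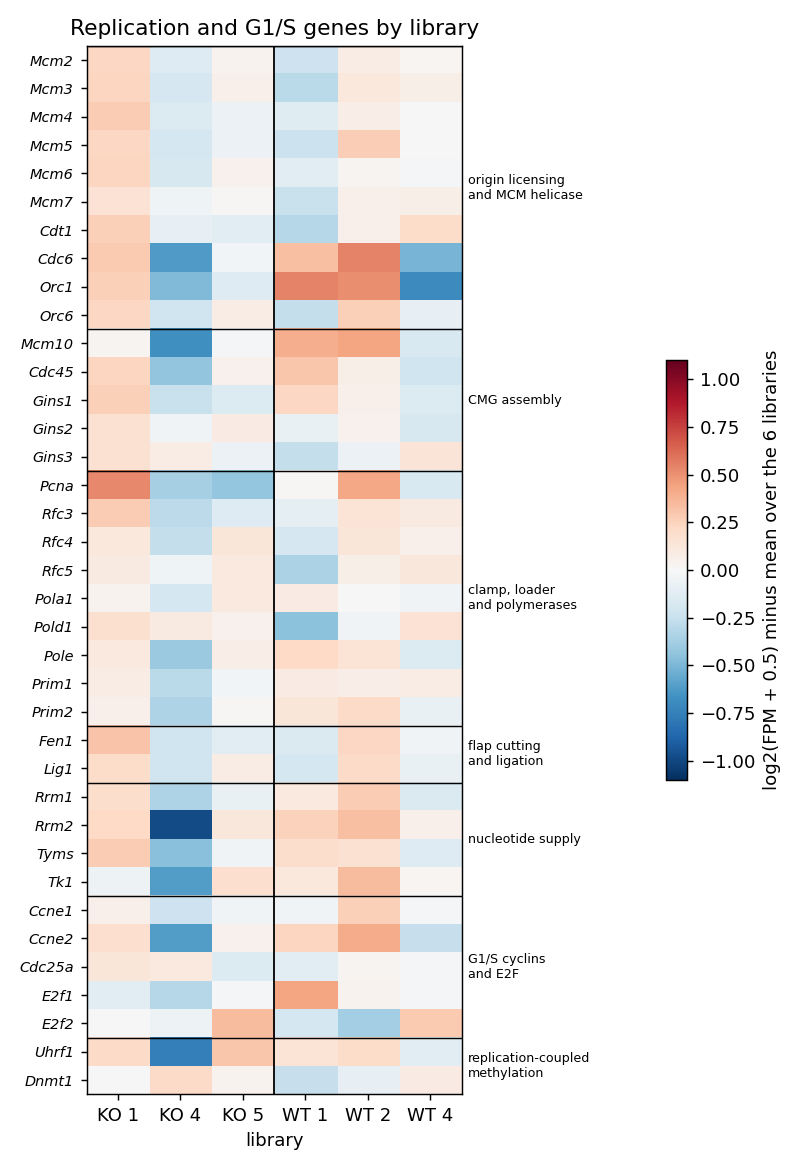
Colour gives log2(FPM + 0.5) of each gene in each library minus its mean over the 6 libraries, with genes grouped by role and the KO libraries left of the WT libraries. The KO 4 column is the bluest, at a mean of -0.276 over the 37 genes, and KO 1 and WT 2 are the reddest, at 0.172 and 0.155.

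Gene positions are those of GENCODE M21 on GRCm38. The comparison of KO with WT asks whether replication and G1/S transcripts differ in amount when Prmt5 is deleted. None of the 37 genes was called higher and none lower at a limma adjusted p below 0.05, where the background was 0% of all genes tested in either direction. Unadjusted p values below 0.05 were found for 0 of the 37, and for 12 higher and 25 lower genes of all 14944. Over all genes that is far less than the share of 0.05 expected if no gene differed, so the test was strict here. With so few genes passing, the 0 of 37 says nothing particular about these genes. Prmt5 was not called either, although its KO values all lay below its WT values. A gene that was not called may therefore still differ. The KO and WT ranges overlapped for all 37 genes, whereas they did not overlap for 2.88% of all genes. The median log2 change of the 37 was 0.04, with 23 positive and 14 negative, beside a median of 0.01 over all genes. This balance turned with the fit and with single libraries. There were 15 positive and 22 negative changes without the series term (median -0.03, beside 0.03 over all genes). With the replicate number as a block there were 17 and 20 (median -0.01, beside 0.01). Without KO 1 there were 7 and 30 (median -0.10, beside -0.08), and without WT 1 there were 14 and 23 (median -0.02, beside -0.01). Without WT 4 there were 25 and 12 (median 0.18, beside 0.12). With scaling to the ERCC spike-in rows the median of all genes was -0.20 and that of the 37 genes -0.17, with 1 positive and 36 negative. The ERCC rows held 1.01%, 1.45% and 1.13% of the column sum in KO 1, KO 4 and KO 5. They held 0.75%, 1.59% and 0.84% in WT 1, WT 2 and WT 4. What lies behind the shift of all genes with ERCC scaling was not tested. In these whole-sample values, fewer cycling cells and less RNA per cell cannot be told apart.

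The intervals bound the changes in the fit with the series term, on log2(value + 0.5). The 95% interval excluded a 2-fold change in either direction for 37 of 37 genes, against 85.1% of all genes tested, and a 1.5-fold change for 29 of 37, against 60.1%. The 8 genes whose interval reached past 1.5-fold were Orc1, Mcm10, Gins2, Rrm2, Tk1, Ccne2, E2f1 and Uhrf1. The offset of 0.5 understates changes of genes with low values, among them Orc1, Gins2 and E2f1. No intervals were taken from the other fits, in which the change of Rrm2 ranged from -0.533 to -0.011. The direction also differed between the library series. A fit without KO 1 rests on series 24 alone, and a fit without WT 4 on series 22 alone. Within series 22 the change (KO 1 minus the mean of WT 1 and WT 2) was positive for 25 of 37 genes with a median of 0.18, and within series 24 (the mean of KO 4 and KO 5 minus WT 4) it was positive for 7 of 37 with a median of -0.10. Over all genes tested, 9931 changes were positive in series 22 and 4293 in series 24. A genotype by series interaction was called for 0 of the 37 genes and 0 of all genes, with a smallest limma adjusted p = 0.678 in both, and its unadjusted p was below 0.05 for 0 of the 37 and for 369 of all genes.

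**Figure D3:**
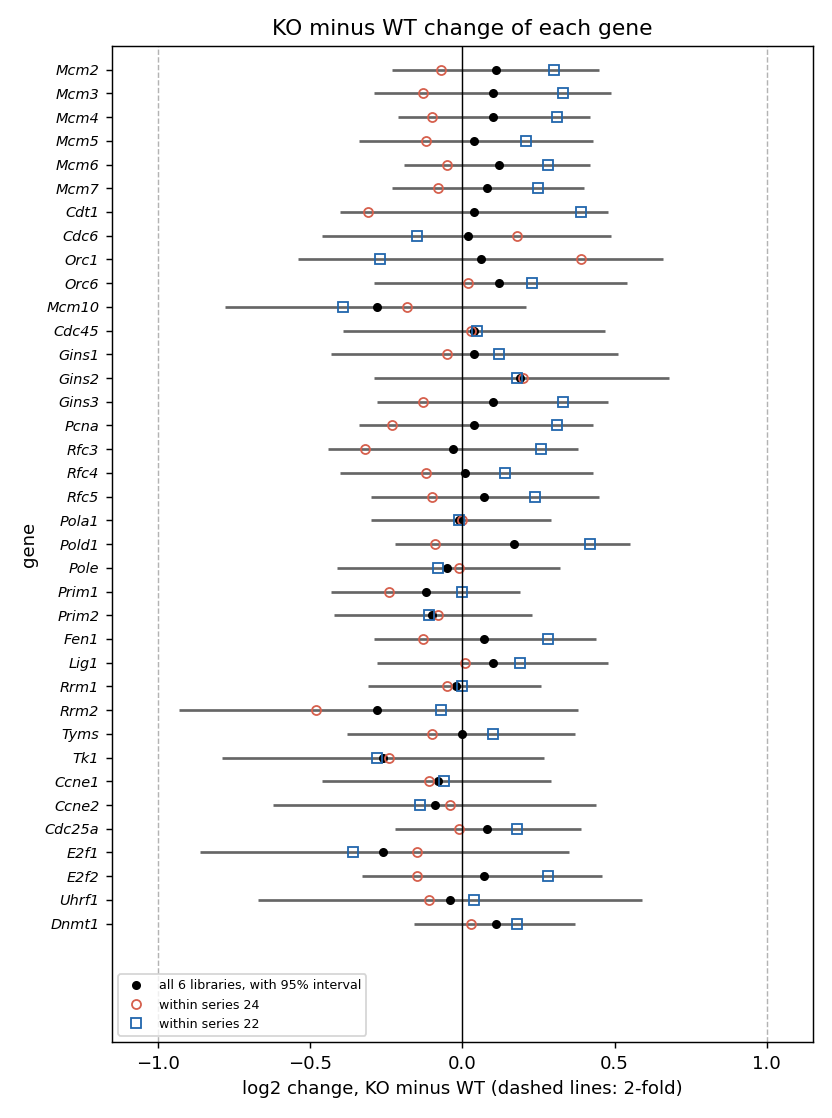
Log2 change of each gene, KO minus WT, with its 95% interval (filled points and bars), and the changes within series 24 (circles) and series 22 (squares). Every interval crosses 0 and ends inside the dashed lines of a 2-fold change, and for 27 of 37 genes the square lies right of the circle. Over all genes tested, the change within series 22 was the larger for 10697 of 14944.

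Of the origin licensing and MCM genes 0 of 10 were called, and their changes in the fit with the series term lay between 0.02 and 0.12. The changes were positive for 8 of 10 within series 22 and for 3 of 10 within series 24. The plain group means went the other way for Cdc6, with 6.67 ± 2.16 in KO and 8.10 ± 2.95 in WT, and for Orc1, with 2.40 ± 0.755 in KO and 3.10 ± 1.47 in WT (SD, n = 3 each). Those of Mcm5 were 59.3 ± 9.17 in KO and 60.4 ± 10.8 in WT. Mcm6 (ENSMUSG00000026355.11, chr1:128331590-128359664, minus strand), a subunit of the ring, had the smallest p of this group. It measured 148.8, 112.0 and 130.8 in KO 1, KO 4 and KO 5, against 115.8, 129.5 and 125.0 in WT 1, WT 2 and WT 4. The highest and the lowest library were both KO, so that the WT values lay inside the KO range. The log2 change was 0.12 (SE 0.131, 95% interval -0.19 to 0.42, limma adjusted p = 1), at 0.28 within series 22 and -0.05 within series 24. Orc6 (ENSMUSG00000031697.12, chr8:85299632-85308278, plus strand), a subunit of the origin recognition complex, had the largest change of the group, 0.12 (SE 0.180, limma adjusted p = 1), with 19.3, 14.0 and 17.4 in the KO libraries against 13.6, 19.7 and 15.4 in the WT libraries. Cdt1, which loads the ring together with CDC6, measured 18.4, 14.3 and 14.1 in the KO libraries, against 12.2, 15.9 and 17.7 in the WT libraries. Its change was 0.39 within series 22 and -0.31 within series 24, with overlapping groups.

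Helicase activation genes gave 0 called of 5. Mcm10 (ENSMUSG00000026669.14, chr2:4989714-5012791, minus strand), a scaffold for activation of the CMG helicase, had both the smallest p and the largest change of the group. It measured 5.7, 3.3 and 5.5 in KO 1, KO 4 and KO 5, against 7.5, 7.7 and 4.9 in WT 1, WT 2 and WT 4. WT 4 lay below 2 of the 3 KO libraries. The log2 change was -0.28 (SE 0.214, 95% interval -0.78 to 0.21, limma adjusted p = 1), at -0.39 within series 22 and -0.18 within series 24. It was -0.16 without KO 4 and -0.44 without KO 5. With the receptor background subtracted in proportion to exon length, Mcm10 measured 5.66 in WT 1. Cdc45, which holds the helicase ring closed with GINS, measured 7.6, 4.6 and 6.6 in KO and 8.0, 6.7 and 5.4 in WT. Gins2 has 67.3% of its exon bases in common with Gse1 on the other strand, and no source used here says whether reads were counted by strand, so its values are uncertain.

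Clamp, loader and polymerase genes gave 0 called of 9, with a median change of -0.005. Pold1 (ENSMUSG00000038644.14, chr7:44532746-44548849, minus strand), the catalytic subunit of polymerase delta, measured 38.0, 35.9 and 34.8 in KO 1, KO 4 and KO 5, against 24.5, 32.7 and 37.6 in WT 1, WT 2 and WT 4. The KO values lay close together, between WT 2 and WT 4 except for KO 1, which lay just above WT 4, and WT 1 was the lowest. The log2 change was 0.17 (SE 0.168, 95% interval -0.22 to 0.55, limma adjusted p = 1), with 0.42 within series 22 and -0.09 within series 24. Prim1, the small catalytic subunit of primase, averaged 20.8 ± 2.76 in KO and 23.2 ± 0.10 in WT (SD, n = 3 each). The WT libraries were nearly equal, at 23.3, 23.1 and 23.2, and KO 1 lay among them at 23.2. Pola1, the catalytic subunit of polymerase alpha, stayed between 33.6 and 41.4 over the 6 libraries.

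Fen1, the flap endonuclease, and Lig1, the ligase that seals Okazaki fragments, gave 0 called of 2. Lig1 (ENSMUSG00000056394.17, chr7:13277283-13311433, plus strand) measured 18.7, 13.8 and 17.1 in the KO libraries, against 14.1, 18.8 and 15.3 in the WT libraries, a log2 change of 0.10 (SE 0.164, limma adjusted p = 1). The 2 groups covered almost the same range. Fen1 shares 78.8% of its exon bases with the antisense gene Gm10143, which again leaves its values uncertain without strand information.

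Nucleotide supply genes gave 0 called of 4. Their changes were negative in 4 of 4, beside 6813 of all 14944 genes, and ranged from -0.277 to -0.004. Rrm2 (ENSMUSG00000020649.11, chr12:24708241-24714146, plus strand), the small subunit of ribonucleotide reductase, which is made in S phase, measured 13.3, 5.5 and 12.4 in KO 1, KO 4 and KO 5, against 13.6, 14.4 and 11.8 in WT 1, WT 2 and WT 4. The low value was that of KO 4 alone, while KO 1 and KO 5 lay inside the WT range. The log2 change was -0.28 (SE 0.282, 95% interval -0.93 to 0.38, limma adjusted p = 1), and it was -0.01 without KO 4 and -0.07 without WT 4. Tk1 (ENSMUSG00000025574.13, chr11:117815526-117826092, minus strand), thymidine kinase of the salvage pathway, measured 6.7, 4.4 and 8.0 in KO, against 7.6, 9.0 and 7.1 in WT. KO 4 was again the lowest library, and KO 5 lay above 2 of the 3 WT libraries. Its log2 change was -0.26 (SE 0.230, limma adjusted p = 1), and it was -0.09 without KO 4. Rrm1, the large reductase subunit, and Tyms, thymidylate synthase, had changes near 0. In the fit with the series term they were -0.02 (SE 0.125) and 0.00 (SE 0.163). Over the alternative fits the sign turned in 3 of 18 for Rrm1 and in 4 of 18 for Tyms. The plain group means, which leave out the series, were 55.9 ± 10.4 in KO and 61.9 ± 9.48 in WT for Rrm1. For Tyms they were 9.37 ± 2.45 in KO and 10.2 ± 1.33 in WT (SD, n = 3 each).

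Among the G1/S cyclins and E2F genes 0 of 5 were called. E2f1 (ENSMUSG00000027490.17, chr2:154559407-154569892, minus strand), an activating E2F factor, measured 2.0, 1.7 and 2.2 in KO 1, KO 4 and KO 5, against 3.2, 2.3 and 2.2 in WT 1, WT 2 and WT 4. KO 5 equalled WT 4, and the highest value was that of WT 1, which was 2.45 with the receptor background subtracted. The log2 change was -0.26 (SE 0.262, 95% interval -0.86 to 0.35, limma adjusted p = 1) on a scale that understates changes of such low genes. It was -0.15 without KO 1 and -0.15 without WT 1. Ccne1 and Ccne2, which encode the E cyclins, averaged 6.67 ± 0.709 and 3.97 ± 1.21 in KO, and 7.40 ± 0.954 and 4.80 ± 1.18 in WT (SD, n = 3 each). In the fit with the series term their changes were -0.08 (SE 0.162) and -0.09 (SE 0.228). Cdc25a, the phosphatase that activates CDK2, measured between 30.4 and 37.3 over the 6 libraries. E2f2, another activating E2F, went against most of the list in its order of libraries, with its highest values in KO 5 (20.3) and WT 4 (19.5) and its lowest in WT 2 (12.1).

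For replication-coupled methylation, Dnmt1 (ENSMUSG00000004099.16, chr9:20907209-20959888, minus strand) measured 221.5, 254.6 and 226.0 in the KO libraries, against 185.3, 207.1 and 234.4 in the WT libraries. WT 4 lay above 2 of the 3 KO libraries. The log2 change was 0.11 (SE 0.115, 95% interval -0.16 to 0.37, limma adjusted p = 1), and it was 0.03 without KO 1. Uhrf1, the protein that brings DNMT1 to newly copied DNA, measured 8.9, 4.3 and 9.5 in KO, against 8.5, 8.8 and 7.0 in WT. KO 4 held the highest Dnmt1 and the lowest Uhrf1 value of the 6 libraries.

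KO 4 was the library that stood lowest for these genes. It held the lowest value of 22 of the 37 genes, beside 18% of all genes tested. The count was 17 with total-sum scaling (14.9% of all genes), where WT 1 was lowest for 16 (56.2%). The KO 4 count was 25 with median-of-ratios scaling (19.8%), 29 with ERCC scaling (28.6%) and 21 with the background subtracted (18.8%). Expressed as a percent of the median of the other 5 libraries, the level in KO 4 had a median of 80.5% over the 37 genes and of 98.3% over all genes. It was 41.4% for Rrm2, 48.9% for Uhrf1, 50.6% for Cdc6, 53.1% for Ccne2 and Orc1, and 57.9% for Mcm10 and Tk1. The MCM ring genes lay between 84.1% (Mcm3) and 92.7% (Mcm7), and 4 genes were above 100%, namely Pold1, Cdc25a, Gins3 and Dnmt1. In KO 4 the ring genes were thus nearer to the other libraries than Rrm2, Uhrf1 and Cdc6 were.

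Genes of mitosis, a list given here for comparison, were lower still in KO 4, with a median of 66.1% over 36 genes, and KO 4 held the lowest value of 31 of them. Mki67, a marker of cycling cells, measured 113.2, 56.4 and 116.0 in KO 1, KO 4 and KO 5, against 120.1, 112.7 and 104.2 in WT 1, WT 2 and WT 4. In a list of 52 other replication genes the median level in KO 4 was 93.1%, with KO 4 lowest for 16. Among 31 tested genes of a G1/S control list it was 89.4%, with KO 4 lowest for 9. KO 4 is 1 library, and KO 1 was the lowest library for 0 of the 37 genes. Without KO 4 the median log2 change of the 37 genes was 0.09, with 30 positive and 7 negative, beside 0.04 over all genes, and 0 were called.

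**Figure D4:**
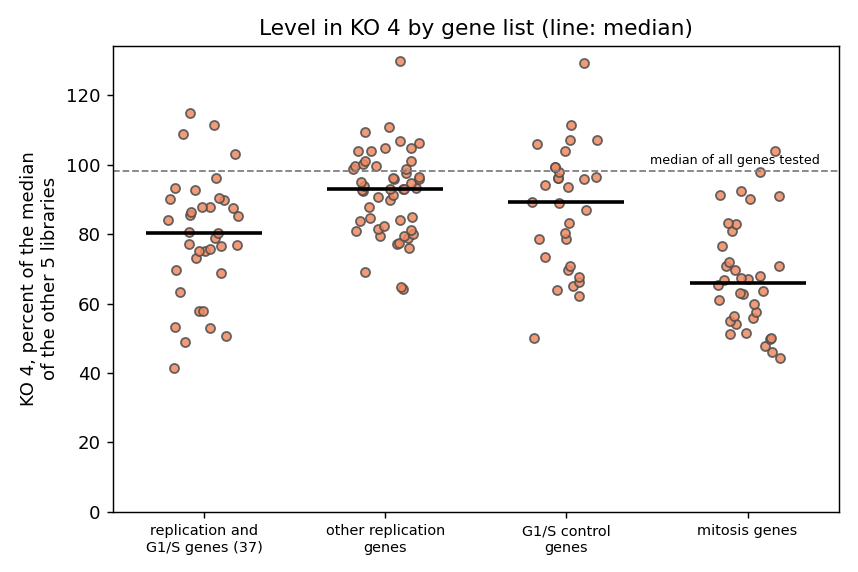
Level in KO 4 as a percent of the median of the other 5 libraries, 1 point per gene, with a line at the median of each list and a dashed line at the median of all genes tested (98.3%). The replication and G1/S genes have a median of 80.5% and reach down to 41.4%, and the mitosis genes have a median of 66.1%.

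The libraries were also compared by series. With genotype as a term, the series 24 minus series 22 difference was negative for 32 of 37 genes, with a median of -0.18 beside 0.06 over all genes tested. The median was -0.09 without KO 1, with 22 of 37 negative, -0.12 without KO 4, with 28 negative, and -0.30 without WT 4, with 35 negative. None of the 37 was called, where limma called 0.141% of all genes in either direction, 0.134% lower and 0.00669% higher in series 24. Unadjusted p values below 0.05 were found for 5 of the 37, all lower in series 24, and for 893 higher and 424 lower genes of all. For 12 of the 37 genes each series 24 library lay below each series 22 library, beside 6.14% of all genes, and for 1 gene, Dnmt1, each lay above, beside 14.3% of all genes. The count of 12 was 7 with total-sum scaling (4.86% of all genes), 2 with ERCC scaling (1.65%), 17 with median-of-ratios scaling (11.1%) and 9 with the background subtracted (5.55%). It was 12 without KO 4 (10.4% of all genes) and 21 without WT 1 (11.5% of all genes).

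Pcna (ENSMUSG00000027342.14, chr2:132249162-132253314, minus strand) had the smallest p of the 37 genes in this comparison. It measured 148.3, 142.2 and 170.0 in KO 4, KO 5 and WT 4 of series 24, against 276.0, 192.7 and 257.4 in KO 1, WT 1 and WT 2 of series 22. The 2 series did not overlap, and KO lay below WT within series 24 and above WT within series 22. The log2 difference was -0.66 (SE 0.166, 95% interval -1.04 to -0.27, limma adjusted p = 0.325), and without WT 1 it was -0.78 and was called (limma adjusted p = 0.0187). Without KO 1 it was -0.39 (limma adjusted p = 0.410), and over all 6 fits that left out 1 library the adjusted p lay between 0.0187 and 0.701. Pcna has pseudogenes in the table, of which Pcna-ps2 reached at most 1.9 FPM.

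Cdc6 (ENSMUSG00000017499.15, chr11:98907801-98923940, plus strand), which recruits CDT1 and the ring to origins, measured 4.4, 6.9 and 4.8 in KO 4, KO 5 and WT 4, against 8.7, 9.0 and 10.5 in KO 1, WT 1 and WT 2. The log2 difference was -0.78 (SE 0.207, 95% interval -1.26 to -0.30, limma adjusted p = 0.356). Orc1 (ENSMUSG00000028587.18, chr4:108579423-108614833, plus strand), the origin recognition subunit that is degraded in S phase in human cells, measured 1.7, 2.3 and 1.4 in KO 4, KO 5 and WT 4, against 3.2, 4.0 and 3.9 in KO 1, WT 1 and WT 2. For Cdc6 and Orc1 the series did not overlap, whereas they overlapped for each of the 6 ring subunits. With the background subtracted Orc1 measured 3.17 in WT 1, and the series still did not overlap. The log2 difference of Orc1 was -0.90 (SE 0.259, 95% interval -1.50 to -0.30, limma adjusted p = 0.384).

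Rrm1 and Tyms, both needed for deoxynucleotide synthesis, were the other genes with an unadjusted p below 0.05. Rrm1 measured 46.0, 54.9 and 52.0 in series 24 (KO 4, KO 5 and WT 4), against 66.7, 62.8 and 70.9 in series 22 (KO 1, WT 1 and WT 2), a log2 difference of -0.38 (SE 0.125, limma adjusted p = 0.446). Tyms had a log2 difference of -0.42 (SE 0.163, limma adjusted p = 0.509). Mcm10 and Ccne2 had differences of -0.48 (SE 0.214, limma adjusted p = 0.577) and -0.52 (SE 0.228, limma adjusted p = 0.568), with intervals that reached 0.01 in both. Rrm2 (-0.44, SE 0.282), Uhrf1 (-0.36, SE 0.271) and Fen1 (-0.27, SE 0.158) had wider intervals or smaller differences, and limma adjusted p values of 0.706, 0.737 and 0.681. Each rested largely on 1 library: without KO 4 the difference was -0.18 for Rrm2 and -0.13 for Uhrf1, and without KO 1 it was -0.07 for Fen1. The difference was positive for 5 genes. Among these it was 0.36 for E2f2 (SE 0.171, limma adjusted p = 0.602) and 0.19 for Dnmt1 (SE 0.115, limma adjusted p = 0.699), and it was 0.15 for Pold1, 0.10 for Rfc5 and 0.07 for Gins3. The series overlapped for 4 of the 5, all but Dnmt1.

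**Figure D5:**
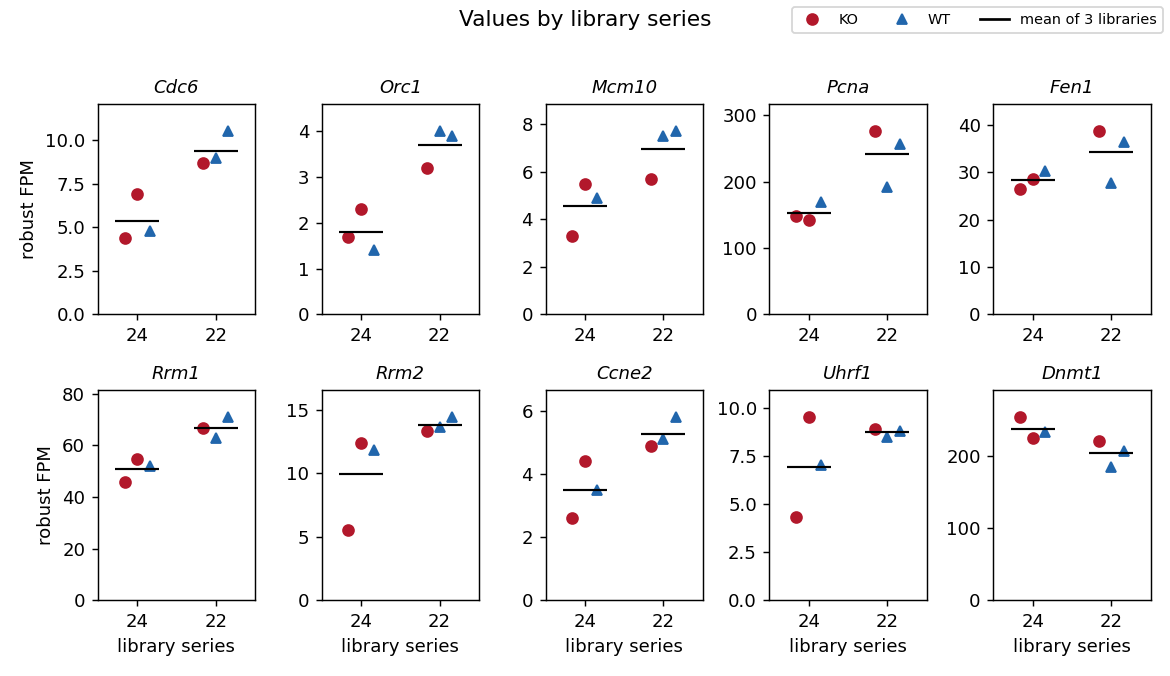
Robust FPM of 10 genes in the libraries of series 24 (left) and series 22 (right), with KO as circles, WT as triangles and a line at the mean of 3 libraries; every axis starts at 0. Pcna, Cdc6, Orc1, Mcm10, Rrm1, Rrm2 and Ccne2 are lower in each series 24 library, Fen1 and Uhrf1 overlap, and Dnmt1 is higher in each series 24 library.

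Other genes of the pathway were read for genotype in the same fit. Of 52 other replication genes, 0 were called in either direction, with a median log2 change of 0.03, and the smallest p values were those of Hells, a chromatin remodeller of DNA methylation (-0.27, SE 0.165), and Rnaseh2c, a subunit of RNase H2 (0.22, SE 0.183). Of 31 tested G1/S control genes 0 were called, with a median of 0.01, with E2f3, an E2F factor, at -0.25 (SE 0.196) and Cdkn1c, a CDK inhibitor, at 0.37 (SE 0.30). Of 36 mitosis genes 0 were called, with a median of -0.14, with the spindle checkpoint kinase gene Ttk at -0.48 (SE 0.260) and the kinetochore motor gene Cenpe at -0.32 (SE 0.183). The limma adjusted p was 1 for each of these 6 genes. Whether the lists differ from each other was not tested.

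Among the 31 genes with a promoter window, the 16 that held an E2F-type spelling had a median level in KO 4 of 87.0% of the other libraries, and the 15 that held none had one of 76.7%. Their median series 24 minus 22 differences were -0.08 and -0.19, and their median KO minus WT changes 0.08 and 0.00. Genes far below the other libraries in KO 4 were found on both sides, with Uhrf1, Cdc6 and Orc1 among those with a match and Rrm2, Tk1 and Mcm10 among those without.

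Markers of other cells that could contribute cycling RNA were read in the same libraries. T cell markers were high throughout, with sums over 8 genes of 2306.5 to 2697.0 in KO and 2142.9 to 2686.3 in WT. The 8 myeloid markers summed to 691.5 to 1506.1 in KO and 269.3 to 1031.8 in WT, with 729.0 in KO 4. By series, the myeloid sums were 729.0, 1506.1 and 1031.8 in KO 4, KO 5 and WT 4, against 691.5, 269.3 and 419.9 in KO 1, WT 1 and WT 2, so that the series did not overlap. The median series 24 minus 22 difference of the 8 myeloid markers was 0.80, with 8 positive, 0 called and 6 with an unadjusted p below 0.05. Their part in the series difference of the replication genes was not tested. The 6 B cell markers summed to 11.4 to 17.4 in KO and 11.2 to 20.3 in WT. The 4 plasma cell markers summed to 96.8 to 202.0 in KO, lowest in KO 4, and to 97.6 to 143.5 in WT. The 6 CD8 T and NK markers summed to 77.1 to 86.7 in KO and 60.9 to 79.2 in WT.

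The 7 erythroid markers summed to 8.5 to 16.6 in KO and 8.1 to 18.7 in WT, and the globin genes Hbb-bs and Hba-a1 were listed at 0 in all 6 libraries. By series, the erythroid sums were 9.9, 8.5 and 8.1 in KO 4, KO 5 and WT 4, against 16.6, 15.7 and 18.7 in KO 1, WT 1 and WT 2, so that the series did not overlap, as for Pcna, Cdc6 and Orc1. The part of such cells in the series difference was not tested. Megakaryocyte markers summed to 9.6 to 18.4 in KO and 8.4 to 11.4 in WT over 3 genes, and stromal and endothelial markers to 270.1 to 281.8 in KO and 242.3 to 305.9 in WT over 4 genes. Nearly all of the stromal and endothelial sum was Pecam1, at 234.5 to 305.1. Cdh5, Col1a1 and Col3a1 reached at most 1.1, 1.7 and 5.0. T cell activation genes summed to 841.1 in KO 4, the lowest of the 6 libraries, with 948.9 to 1244.3 in the other KO libraries and 984.0 to 1175.4 in WT, and their part in the position of KO 4 was not tested. By series, their median 24 minus 22 difference was -0.20 over 17 tested genes, with 12 negative and 1 called lower. Nr4a1, an early gene of T cell receptor signalling chosen here after its values were seen, measured 14.1, 16.7 and 18.5 in KO 4, KO 5 and WT 4, against 58.6, 42.8 and 54.6 in KO 1, WT 1 and WT 2. The series did not overlap, in the same direction as for Pcna, Cdc6 and Orc1, and the part of activation in the series difference was not tested.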

How the data were processed

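Libraries were made from CD4 T cells of spleen and lymph nodes, per the labels' protocols. The authors deposited 1 table in robust FPM, rounded to 1 decimal, which was handled as RPM because it holds no raw reads. Per the submitters' processing notes the tools were DESeq, DESeq2, featureCounts and STAR, without role or version, and the build GRCm38.p3. Of 54624 rows, 92 ERCC rows were left out of tests, and 54409 of 54532 gene rows matched a symbol. Another 6 columns matched no sample and were not used. Depth is unknown, and no counting interval is given.

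Values were analysed as log2(value + 0.5), for genes with a mean of at least 1, with limma 3.58.1 in R 4.3.3 (terms for library series and genotype, mean-variance trend, two-sided), adjusted by Benjamini-Hochberg over 14944 genes and called below 0.05. The fit was tested on simulated data. P-values measure the spread between samples that the series calls biological replicates. Genes and lists were chosen with earlier results of these data known. Within each role, the genes of smallest p and of largest change in either comparison have full statistics. Exon lengths came from GENCODE M21 (GRCm38) and promoters from RefSeq. Figures used matplotlib 3.10.9 in Python 3.11.15. Counts of genes by library order under other scalings or without KO 4 or WT 1 were added after seeing the data.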

Additional observations from a re-analysis of the deposited data

How the results depend on the processing

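The counts of 0 called genes among the 37 for KO against WT held under each alternative run: pseudocounts of 0.1 and 1, no filter or a mean of at least 5, total-sum, median-of-ratios and ERCC scaling, background subtraction, limma without the trend and with robust variances, a threshold of 0.1, no series term, the replicate block and each library left out. Over all genes, each of these runs but the replicate block also called 0 higher and 0 lower. The count of 0 thus says nothing particular about the 37 genes. The replicate block called 1 higher and 4 lower genes of all. Same-numbered samples did not deviate together (correlations of -0.160 for number 1 and -0.409 for number 4). The numbers were not used as pairs in the fit with the series term, but so few correlations cannot exclude a pairing. With ERCC scaling the changes turned to -0.10 for Mcm6, -0.09 for Orc6, -0.052 for Pold1, -0.11 for Lig1 and -0.11 for Dnmt1, with the median of all genes at -0.20. With 1 library left out they ranged from -0.046 to 0.28 for Mcm6, from -0.002 to 0.23 for Orc6 and from -0.088 to 0.42 for Pold1. For series 24 against 22, 0 to 1 of the 37 genes was called lower with 1 library left out, the 1 being Pcna without WT 1. The 12 genes lower in each series 24 library became 7 with total-sum scaling, 2 with ERCC scaling and 21 without WT 1, while the share over all genes, 6.14%, became 4.86%, 1.65% and 11.5%. The median change of the 37 genes was -0.17 with ERCC scaling. Of the 37 genes, 7 kept the sign of their genotype change under all alternatives and 24 that of their series difference. The depth is unknown, and with 3 libraries a group the intervals limit what could be seen.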
